A study of Mus musculus with 12 samples.

Results

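The non-clustered protocadherins are single-gene members of the cadherin superfamily that lie outside the protocadherin alpha, beta and gamma clusters. The genes described here are the 9 rows of the deposited expression table with the symbols Pcdh1, Pcdh7, Pcdh8, Pcdh9, Pcdh10, Pcdh17, Pcdh18, Pcdh19 and Pcdh20, out of 32494 genes listed. They were taken by symbol, not by a threshold on a measured value. All 9 were detected in every library, with 354 to 17153 reads per gene and library, and all 9 passed the minimum mean level of 1 CPM (reads of a gene scaled to a common, normalized library total). The data are messenger RNA sequencing of the hypothalamus of 12 male mice. Every mouse, in both groups, carried floxed Smc3 alleles and was given tamoxifen, and tissue was collected 5 weeks later. The titles of all 12 libraries, in both groups, also carry the word control. The labels state an age of 8 weeks without saying to which step it belongs. The WT group (n = 7) was Camk2a-cre/ERT2- and the cKO group (n = 5) was Camk2a-cre/ERT2+. This transgene makes a tamoxifen-activated recombinase under a promoter of forebrain excitatory neurons. The tissue also holds other cells, and which of its cells recombined was not tested. Smc3 is part of the cohesin ring, which forms chromatin loops, and the study asked what its loss from neurons of the adult brain does.

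Protocadherins are membrane proteins whose extracellular cadherin repeats bind the same protein on a neighbouring cell and whose cytoplasmic tails differ between subfamilies. Of the 9 genes, the delta-1 members (Pcdh1, Pcdh7 and Pcdh9) carry a tail motif that binds protein phosphatase 1. Several delta-2 members (Pcdh8, Pcdh10, Pcdh17, Pcdh18 and Pcdh19) recruit the WAVE complex, which drives actin branching. Pcdh11x, also a delta-1 gene, is not among the 9 and is described below with related genes. Pcdh20 is placed in neither subfamily here. In the brain these genes are expressed in overlapping sets of neurons and are known for roles in axon growth, the sorting of cells and the forming and removal of synapses.

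Promoters of 8 of the 9 genes were found in RefSeq (build GRCm38.p6). The 250 bases before the start site are shown for Pcdh7, the member whose level rose, and for Pcdh17, which had the next largest difference. They are also shown for Pcdh8 and Pcdh19, the pair with the highest Pearson's r over all libraries after each group's mean was removed. Capitals mark matches, on either strand, to the TATA box (TATAAA), the CCAAT box (CCAAT, or ATTGG on the other strand) and the Sp1 GC box (GGGCGG, or CCGCCC on the other strand).
Pcdh7, chr5:57717831-57718080, plus strand: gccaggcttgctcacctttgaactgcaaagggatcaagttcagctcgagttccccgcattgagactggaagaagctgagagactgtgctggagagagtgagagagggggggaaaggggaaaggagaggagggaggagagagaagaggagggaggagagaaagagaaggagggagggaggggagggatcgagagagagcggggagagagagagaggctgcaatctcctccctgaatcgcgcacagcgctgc
Pcdh8, chr14:79771313-79771562, minus strand: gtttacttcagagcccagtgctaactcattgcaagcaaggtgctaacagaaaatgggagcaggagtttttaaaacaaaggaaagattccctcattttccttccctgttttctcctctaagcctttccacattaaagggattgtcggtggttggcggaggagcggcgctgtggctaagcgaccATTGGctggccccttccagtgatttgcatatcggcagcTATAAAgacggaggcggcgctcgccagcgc
Pcdh17, chr14:84443313-84443562, plus strand: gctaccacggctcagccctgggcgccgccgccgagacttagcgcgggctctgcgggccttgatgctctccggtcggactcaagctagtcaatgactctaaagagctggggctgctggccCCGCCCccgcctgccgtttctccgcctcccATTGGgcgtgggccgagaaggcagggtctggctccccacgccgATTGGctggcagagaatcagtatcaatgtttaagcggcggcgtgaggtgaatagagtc
Pcdh19, chrX:133688994-133689243, minus strand: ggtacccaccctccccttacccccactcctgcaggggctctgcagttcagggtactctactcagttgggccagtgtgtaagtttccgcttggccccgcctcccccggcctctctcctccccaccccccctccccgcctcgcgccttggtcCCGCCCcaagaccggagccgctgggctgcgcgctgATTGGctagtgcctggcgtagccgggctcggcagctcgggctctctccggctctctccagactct
These 4 differ in the letters they hold. The Pcdh7 window, rich in runs of purines, held none of the 3 motifs, and it was the 1 member promoter without a CCAAT box. Pcdh8 held a TATA box that begins 30 bases before the start site, and it was the 1 of 8 members with one. Pcdh17 and Pcdh19 each held a CCAAT box (2 in Pcdh17) and a GC box. With the 50 bases after the start included, 7 of 8 members held the CCAAT box against 37.4% of 32851 promoters, 4 held the GC box (Pcdh10, Pcdh17, Pcdh18 and Pcdh19) against 35.7%, and 1 the TATA box against 13.6%. Of the other letters searched, the short core of the CTCF motif (AGGGGGC) was in Pcdh9 alone (10.6% of all promoters). The long CTCF core (0.0365% of all promoters), the cAMP response element (TGACGTCA, 1.79%) and a short part of the RE1 motif (TTCAGCACC, 0.371%) were in none of the 8. The CCAAT box was chosen after the promoters had been read, and a match is a string of letters, not a measured site.

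Depth was 17.1 to 24.0 M reads (megareads) in 11 libraries and 68.7 M in WT 1. Smc3 was examined first because it checks the labels, and it went against them. It was at 81.6 ± 3.14 CPM (SD, n = 7, 76.8 to 85.7) in the libraries labelled WT and 131 ± 10.3 CPM (SD, n = 5, 116 to 144) in those labelled cKO, higher by 0.67 on the log2 scale (SE 0.05, limma adjusted p = 3.06e-05). The Smc3 values are reads of the whole gene, and which exons are floxed is not given in the sources used here. Whether these reads cover the deleted part was therefore not tested. The groups are therefore called by their labels, and every direction below is between libraries so labelled and holds only as far as the labels do. The hypothalamus was checked by 15 marker genes: their summed level ran from 89.3 to 716 CPM in WT and from 199 to 784 CPM in cKO libraries, and it was low in WT 4, WT 5, cKO 12 and cKO 13. Of these markers Nr5a1, Fezf1 and Rax had under 3 reads in at least 1 library, Nr5a1 and Rax 0 in at least 1. Sim1, the 1 hypothalamic marker past the threshold, was at 14.9 ± 2.48 CPM (SD, n = 7) in WT and 22.7 ± 4.89 CPM (SD, n = 5) in cKO, higher by 0.56 (limma adjusted p = 0.0206). Its call was lost without cKO 9 (0.0518) or cKO 14 (0.05004), and with the thalamic covariate its difference was 0.62 (0.0645). Of the thalamic markers, 9 of 9 had negative differences and 3 passed the threshold (Prkcd, Plekhg1 and Rgs16), beside 7.6% of all genes tested called lower. The mean level of the list, as log2(CPM + 1), was 6.14 in WT and 5.52 in cKO (exact permutation p = 0.0227, not adjusted over the marker lists). The summed level of these markers was 570 to 1203 CPM in WT and 334 to 700 CPM in cKO, and none of them was at 0 in any library. The call of Plekhg1 (limma adjusted p = 0.0489) was lost in 9 of 12 fits without 1 mouse and in 8 of 14 other alternatives. Because this is bulk tissue, fewer cells of a type and less RNA per cell cannot be told apart.

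Pcdh7 rose in the libraries labelled cKO, and the other 8 members did not pass the test. The 1 called member stands beside 14.1% of the 15359 genes tested that passed an adjusted p of 0.05 with limma, 6.54% higher and 7.6% lower. The count for the 9 members is therefore about what the background gives. In direction, 5 members had positive differences, Pcdh18 one of 0.00, and 3 negative differences. Their median difference was 0.02 on the log2 scale against 0.01 over all genes tested, and their median size of difference was 0.14 against 0.10. In 3 members the unadjusted p was under 0.05, as in 31.1% of all genes tested. In none did the ranges of the groups stand apart, which they did for 6.73% of genes. Summed over the 9 members, the level was 1117 to 1267 CPM in WT and 1092 to 1368 CPM in cKO libraries.

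**Figure D1:**
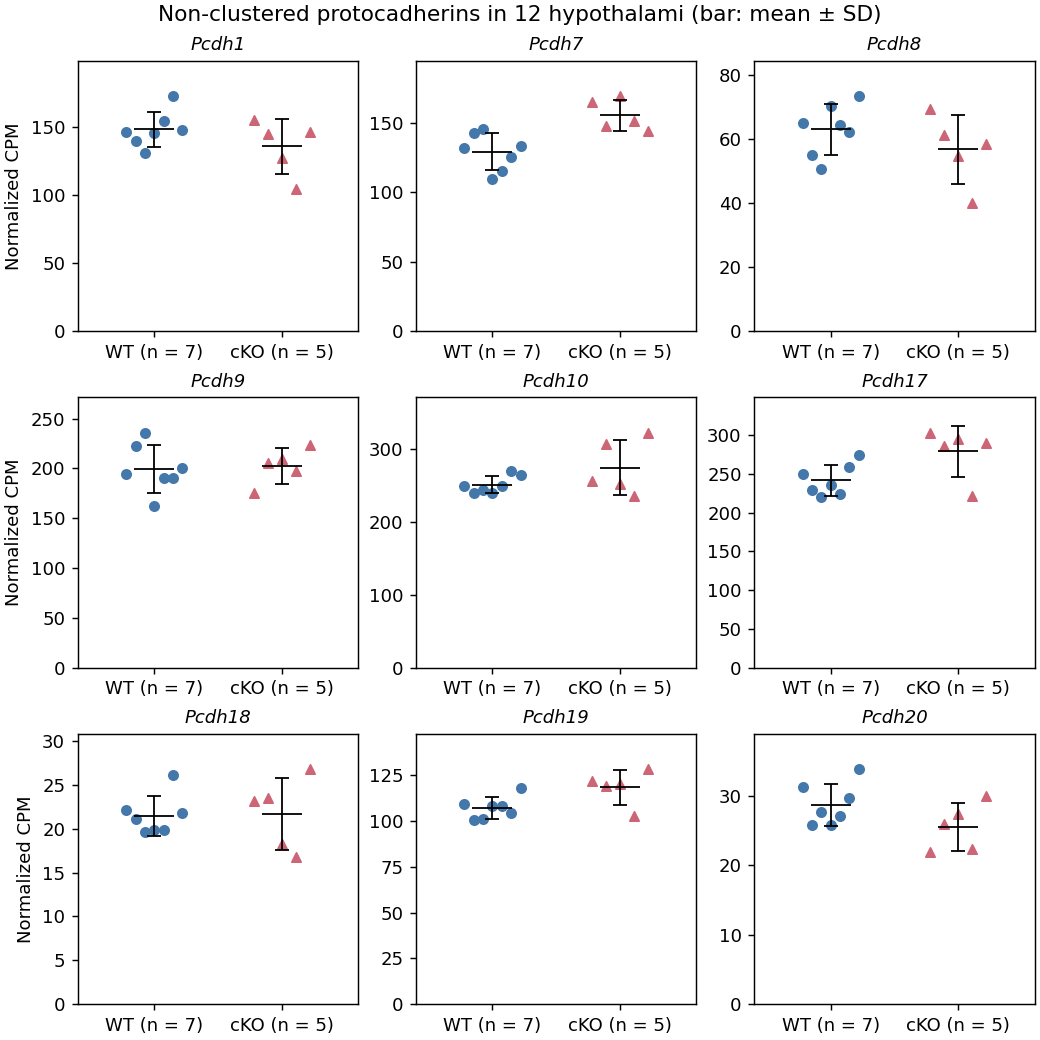
Normalized CPM (y axis, from 0, a scale for each gene) of the 9 non-clustered protocadherins in 7 WT (circles) and 5 cKO (triangles) hypothalami, 1 point per mouse, with mean ± SD. The groups overlap in every panel, most narrowly for Pcdh7, where 4 of 5 cKO values lie above the highest WT value, and cKO 13 is the lowest triangle for Pcdh1, Pcdh8, Pcdh10, Pcdh17, Pcdh18 and Pcdh19.

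Among the delta-1 members, Pcdh7 (NF-protocadherin, which acts in the growth of axons and dendrites) had the largest difference of the 9 members in this fit. Pcdh11x, a delta-1 gene outside the 9, had a difference of the same size (0.271 against 0.269 for Pcdh7). Among the members, Pcdh7 was not the largest with the thalamic covariate, both marker scores, array weights or without cKO 13. In WT it was between 110 and 146 CPM with a median of 132, and in cKO 8, 9, 12, 13 and 14 it was at 165, 148, 169, 151 and 144 CPM. The cKO libraries were all above the WT median, and cKO 14 alone fell within the WT range. The means were 129 ± 13.4 CPM (SD, n = 7) and 155 ± 10.97 CPM (SD, n = 5), a ratio of 1.20. On the log2(CPM + 1) scale the difference was 0.27 (SE 0.07, 95% interval 0.12 to 0.42) with a limma adjusted p of 0.0258, and the exact permutation test over all 792 splits gave p = 0.00379. In the authors' deposited table Pcdh7 was likewise the 1 member with a false discovery rate under 0.05 (log2 fold change 0.27, FDR 0.0214), as were 4.94% of all genes listed there and 9.09% of the genes tested here. The call was lost without cKO 8 (adjusted p = 0.0562, beside 11% of genes called), without cKO 12 (0.0547, beside 12.7%) and with the thalamic marker score as a covariate, where the difference was 0.19 and the limma adjusted p 0.195. With the thalamic and hypothalamic scores both in the fit it was 0.24 with an adjusted p of 0.0424. The part of the thalamic markers in this result was not tested beyond these fits. In GENCODE M21 the exons of Pcdh7 overlap 4932441J04Rik on the opposite strand over 21.1% of their length, and whether counting used strand is not given in the sources used here. That transcript had at most 0.465 CPM of its own.

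Pcdh9 and Pcdh1 are the other delta-1 genes among the 9 members, and neither passed the test. Pcdh9, a protocadherin spread over a long gene, was between 163 and 236 CPM in WT with a median of 195. It was at 175, 205, 210, 197 and 223 CPM in cKO 8, 9, 12, 13 and 14. The cKO values lay inside the WT range. The difference of 0.02 on the log2 scale (SE 0.08, 95% interval -0.15 to 0.20, limma adjusted p = 0.876) turned to -0.02 without WT 6 and -0.01 without cKO 14. Pcdh1, an adhesion protein best known from airway epithelium, was between 131 and 172 CPM in WT with a median of 146, and at 155, 145, 127, 104 and 146 CPM in the same cKO libraries. The values of cKO 12 and cKO 13 were under the lowest WT value. Its difference was -0.14 (SE 0.09, 95% interval -0.33 to 0.06, limma adjusted p = 0.326), and -0.04 without cKO 13.

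Of the delta-2 members, Pcdh17 and Pcdh19 were above every WT library in 4 of 5 cKO libraries without passing the test. Pcdh17, which helps to assemble presynaptic terminals and to extend axons in bundles, was between 220 and 274 CPM in WT with a median of 236. It was at 303, 286, 295, 222 and 289 CPM in cKO 8, 9, 12, 13 and 14. Of these, 4 were above every WT library and cKO 13 stood near the lowest one. The difference was 0.20 (SE 0.08, 95% interval 0.04 to 0.37) with a limma adjusted p of 0.0950 and an exact permutation p of 0.0379. Pcdh19, an X-linked gene mutated in a form of epilepsy that affects mainly females, was between 101 and 118 CPM in WT with a median of 108. In the cKO libraries it was at 122, 119, 120, 103 and 128 CPM in the same order, with cKO 13 again the low one. Its difference was 0.14 (SE 0.05, 95% interval 0.02 to 0.26, limma adjusted p = 0.0974, exact permutation p = 0.0391). Without cKO 13 both passed the test, Pcdh17 at 0.28 (limma adjusted p = 0.0148) and Pcdh19 at 0.19 (0.0219), and 3 of 9 members were then called beside 10.1% of genes. With both marker scores as covariates they were at 0.11 (0.427) and 0.07 (0.405). Leaving out cKO 13 is a choice with its values known, since that library is the lowest cKO one in both genes.

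Pcdh10, Pcdh8 and Pcdh18 showed no called difference. Pcdh10 (OL-protocadherin, known for axon guidance and the removal of excitatory synapses) was the steadiest member in WT, between 239 and 269 CPM with a median of 249 and a coefficient of variation of 4.71%. The cKO libraries spread more widely, at 256, 307, 251, 236 and 322 CPM in cKO 8, 9, 12, 13 and 14, a coefficient of variation of 13.8%. The cKO 9 and cKO 14 libraries were above all WT values and cKO 13 below them, and the difference was 0.12 (SE 0.07, 95% interval -0.03 to 0.27, limma adjusted p = 0.271). It was 0.06 without cKO 14, 0.08 without cKO 9 and 0.17 without cKO 13. Pcdh8 (arcadlin, induced by neuronal activity and known to draw N-cadherin into the cell) was between 50.6 and 73.3 CPM in WT with a median of 64.3. It was at 69.3, 61.2, 54.6, 40.0 and 58.5 CPM in the cKO libraries, with only cKO 13 outside the WT range. Its difference was -0.16 (SE 0.12, 95% interval -0.42 to 0.10, limma adjusted p = 0.387). It was -0.04 without cKO 13, -0.22 with the hypothalamic score as a covariate (limma adjusted p = 0.0640) and -0.31 with both marker scores (0.0575). Pcdh18, whose tail binds the adaptor Dab1, was the least abundant member, between 19.6 and 26.1 CPM in WT with a median of 21.1. It was at 23.2, 23.5, 18.2, 16.8 and 26.8 CPM in cKO, on both sides of the WT range. The means were 21.5 ± 2.28 CPM (SD, n = 7) and 21.7 ± 4.11 CPM (SD, n = 5), with a difference of 0.00 (SE 0.11, 95% interval -0.23 to 0.23), and 0.08 without cKO 13.

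Pcdh20 was between 25.8 and 33.9 CPM in WT with a median of 27.8, and at 21.9, 26.03, 27.4, 22.4 and 29.9 CPM in cKO 8, 9, 12, 13 and 14. The cKO 8 and cKO 13 libraries were below all WT values and the others inside their range. The difference was -0.17 (SE 0.09, 95% interval -0.36 to 0.02, limma adjusted p = 0.201). A missed threshold does not show equal levels: the 95% intervals reached 0.12 to 0.26 log2 units to either side of the differences of the 9 members.

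**Figure D2:**
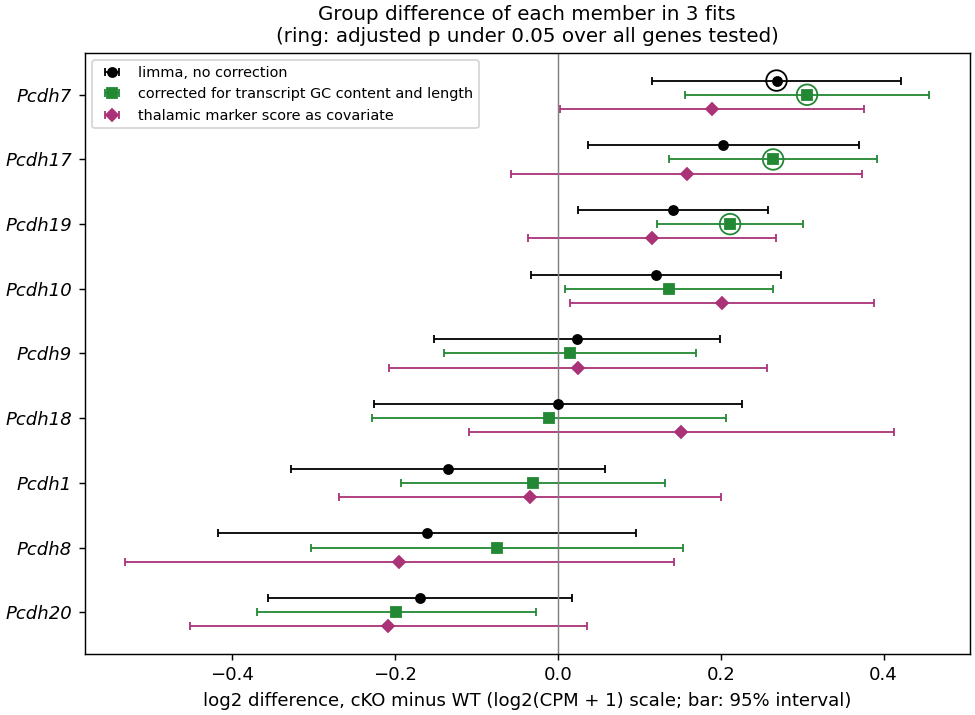
Difference between the libraries labelled cKO and WT (x axis, log2(CPM + 1) scale, bars 95% intervals) for each member in 3 limma fits: without correction (circles), corrected for transcript GC content and length (squares), and with the thalamic marker score as a covariate (diamonds). A ring marks an adjusted p under 0.05: Pcdh7 is ringed without correction, Pcdh7, Pcdh17 and Pcdh19 with the GC and length correction, and no member with the thalamic covariate.

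Base composition set Pcdh1 and Pcdh8 apart from the other members. The longest transcripts of Pcdh1 and Pcdh8 have a GC content of 60.7% and 59.3%, and those of the other 7 members 42.0% to 47.8%. The differences did not follow this throughout: Pcdh20, with the lowest GC content, had the most negative one (-0.17, and -0.20 after the correction described next). Across the 14515 tested genes with a GENCODE M21 transcript, the log2 difference fell with GC content (Spearman's rho -0.216 across genes, which are not independent replicates). A spline correction of each library for GC content and length brought rho to 0.00953. After it the difference of Pcdh1 was -0.03 and that of Pcdh8 -0.07, while Pcdh7 (0.31, limma adjusted p = 0.0147), Pcdh17 (0.26, 0.0141) and Pcdh19 (0.21, 0.00820) were all past the threshold. That is 3 of 9 members beside 13.4% of genes under the same correction. With the thalamic covariate, 0 members were called beside 5.74% of genes. In that limma fit 2 members had an unadjusted p under 0.05, beside 24.7% of all genes. edgeR and DESeq2 on reads recovered from the CPM called 1 member each without the covariate, beside 13.7% and 17.9% of genes. Array weights, which weight libraries by their fit, called 5 members (Pcdh7, Pcdh10, Pcdh17, Pcdh19 and Pcdh20) beside 33.4% of genes.

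The differences were also set beside gene length. Per GENCODE M21, Pcdh9 spans 877 kb, Pcdh7 415 kb, Pcdh19 106 kb, Pcdh17 95.4 kb and Pcdh10 57.2 kb, and these 5 had positive differences, though that of Pcdh9 turned negative without WT 6 or cKO 14. Pcdh1 (26.1 kb), Pcdh20 (6.65 kb) and Pcdh8 (4.54 kb) had negative differences, and that of Pcdh18 (14.03 kb) was 0.00 with a sign that varied between fits. Over all genes, the 4389 genes longer than 50 kb had a median difference of -0.01 with 47.4% higher, and the 10126 shorter ones 0.02 with 56.6% higher. After the GC content and length correction these medians were 0.01 (51.9% higher) and 0.02 (55.0% higher), so the sign for the longer genes turned. The limit of 50 kb was chosen after the members' spans were seen. Chromosome did not sort them: Pcdh8, Pcdh9, Pcdh17 and Pcdh20 lie on chromosome 14, Pcdh10 and Pcdh18 on chromosome 3, Pcdh7 on 5, Pcdh1 on 18 and Pcdh19 on X.

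Levels were compared between members per kb of the longest transcript. In WT, Pcdh9 (30.6 ± 3.65 CPM per kb, SD, n = 7) and Pcdh10 (30.4 ± 1.43) were the highest, followed by Pcdh1 (27.3 ± 2.39), Pcdh17 (21.1 ± 1.76), Pcdh7 (14.7 ± 1.53), Pcdh8 (13.9 ± 1.76), Pcdh19 (10.4 ± 0.578), Pcdh20 (5.49 ± 0.578) and Pcdh18 (4.16 ± 0.441). The WT ranges of neighbours did not overlap between Pcdh1 and Pcdh17, between Pcdh17 and Pcdh7 and between Pcdh19 and Pcdh20, and overlapped for the other 5 pairs. Pcdh9 was above Pcdh10 in 4 of 12 libraries, so the order of these 2 is not settled, and Pcdh10 was above Pcdh1 in all 12 although their WT ranges overlapped. The order rests on the length used: 3 of 9 ranks were kept with coding length, which put Pcdh10 and Pcdh17 at the top, and 5 with the union of all exons, which put Pcdh9 and Pcdh17 there. Pcdh20 and Pcdh18 were the lowest under all 3 lengths.

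**Figure D3:**
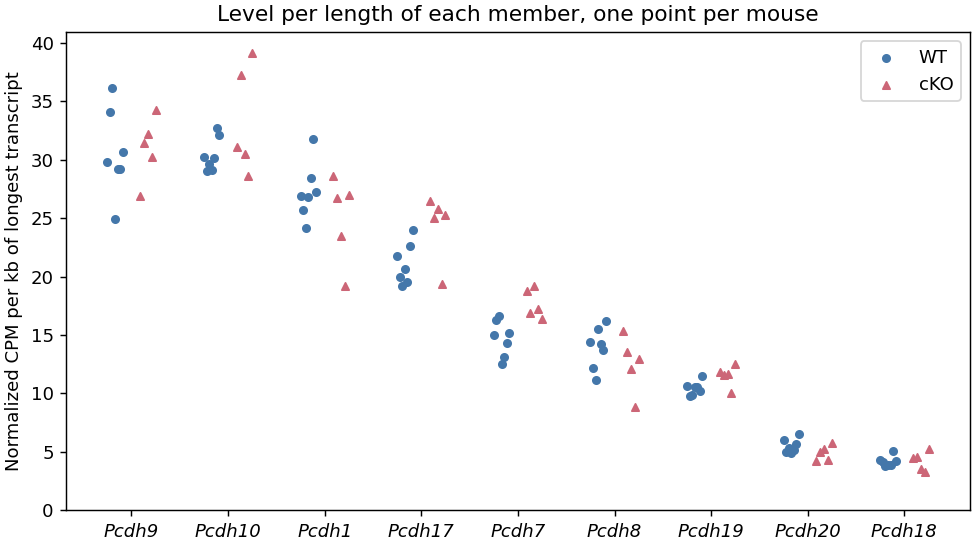
Normalized CPM per kb of the longest GENCODE M21 transcript (y axis, from 0) for each member in the 7 WT (circles) and 5 cKO (triangles) libraries, 1 point per mouse, ordered by WT mean. WT means run from 30.6 for Pcdh9 to 4.16 for Pcdh18, and the step from Pcdh19 to Pcdh20 separates the 7 higher from the 2 lower members.

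The members also varied between mice of the same group. The median coefficient of variation over members was 10.4% in WT and 13.4% in cKO, against 8.19% and 9.22% over all genes tested. After each group's mean was removed, 27 of 36 pairs of members had a positive Pearson's r over the 12 libraries (median r 0.49). None passed an adjusted p of 0.05 in a permutation of libraries within groups (100000 draws), and 11 had an unadjusted p under 0.05. No such counts over pairs of other genes are given here, so these are not read as particular to the family. Pcdh8 and Pcdh19 had the highest r, 0.86 (Spearman's rho 0.76, p = 0.00223 by permutation, adjusted 0.0510), and r was 0.65 without WT 5 and cKO 13, the libraries farthest from the median. Pcdh1 with Pcdh18 and Pcdh10 with Pcdh18 both had an r of 0.84, at 0.70 and 0.78 without their 2 farthest libraries. Median centring of the libraries brought 5 pairs past the threshold, and leaving out 1 mouse between 0 and 6.

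Within the 7 WT mice alone, Pcdh7 and Pcdh9 were ordered alike. WT 5 and WT 4 were the highest in both genes and WT 6 the lowest, with r = 0.93 and rho = 1 (exact permutation p = 9.92e-04 for r, adjusted over 36 pairs 0.0357), and r = 0.97 without WT 6 and WT 7. With all 12 libraries, group means removed, r was 0.57 (adjusted permutation p = 0.188) and 0.09 without WT 5 and WT 6. When any 1 WT mouse was left out, r within WT was between 0.87 and 0.98. The exact permutation p was 0.00139 without WT 1, WT 7 or WT 15, the smallest that 6 mice can give, which adjusts to 0.05 for a single pair. It was 0.00417 without WT 4, WT 5 or WT 11 and 0.0181 without WT 6 (adjusted 0.150 and 0.231). Cell type markers also varied over these mice, a comparison chosen after the values were seen. The summed level of oligodendrocyte lineage markers was 10196 CPM in WT 5, 9303 in WT 4 and 7225 in WT 1, and lowest in WT 6 at 4360. It did not follow the order throughout, with 5670 CPM in WT 7, 5318 in WT 11 and 5272 in WT 15, of which WT 15 had the most Pcdh7. Hypothalamic markers ran the other way, at 89.3 CPM in WT 5, 104 in WT 4, 406 in WT 1, 490 in WT 15, 508 in WT 7, 615 in WT 11 and 716 in WT 6. The oligodendrocyte lineage sum in cKO 12 and cKO 13 was 9037 and 10277 CPM, and in the other cKO libraries 5132 to 6441. The part of both marker lists in the relation was not tested. Among the oligodendrocyte lineage markers Pdgfra was past the threshold between the groups (higher in cKO by 0.14, limma adjusted p = 0.0476), a call lost in 9 of 12 fits without 1 mouse and in 6 of 14 other alternatives.

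**Figure D4:**
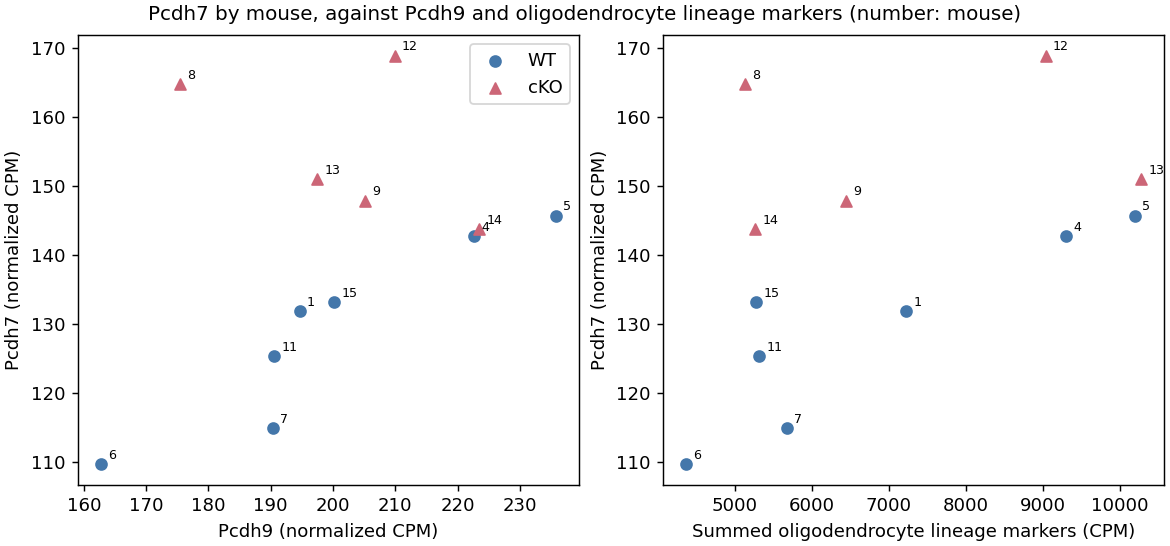
Pcdh7 (y axis, CPM) against Pcdh9 (left, x axis in CPM) and against the summed CPM of 9 oligodendrocyte lineage markers (right) in 7 WT (circles) and 5 cKO (triangles) mice, with mouse numbers beside the points and axes that do not start at 0. In the left panel the WT points climb together from mouse 6 to mouse 5 and the cKO points do not; in the right panel mice 4 and 5 are high and mouse 6 is low among the WT.

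For each member, the gene outside the family with the most similar group-centred pattern over the 12 libraries was Prag1 for Pcdh1 (r 0.97), Gtf2h2 for Pcdh7 (0.92), Foxj3 for Pcdh8 (0.97), Inhbb for Pcdh9 (0.96), Fbxo42 for Pcdh10 (0.96), Ago2 for Pcdh17 (0.99), Cblb for Pcdh18 (0.95), N4bp1 for Pcdh19 (0.96) and Taf1 for Pcdh20 (0.94). These are the highest of 15359 genes by choice and carry no test. Gtf2h2, the gene closest to Pcdh7 within the groups, had a difference between the groups of -0.01 (limma adjusted p = 0.923).

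Related adhesion genes outside the 9 members were read from the same fit. Among 16 other protocadherins and large cadherins, 14 were tested, 1 rose and 4 fell, beside 6.54% and 7.6% of all genes tested, and their median difference was -0.14 against 0.01 over all genes. Their mean level, as log2(CPM + 1), was 5.42 in WT and 5.31 in cKO (exact permutation p = 0.0530). edgeR called 4 of the 14 and DESeq2 5, beside 13.7% and 17.9% of all genes, and limma with the thalamic covariate 2, beside 5.74%. Pcdh11x, the X-linked delta-1 gene, rose by 0.27: WT was at 45.6 ± 5.88 CPM (SD, n = 7) and cKO at 55.0 ± 4.71 CPM (SD, n = 5), with a limma adjusted p of 0.0488. This call was lost in 9 of the 12 fits that left out 1 mouse (all but those without WT 5, WT 15 or cKO 9) and in 6 of 14 other alternatives, among them edgeR (adjusted p = 0.0557), quantile normalization (0.0530) and the thalamic covariate (a difference of 0.12, 0.435). In the authors' deposited table its FDR was 0.0632. Clstn2, a synaptic calsyntenin, fell by 0.53 on the log2 scale, from 187 ± 18.8 to 130 ± 25.6 CPM (limma adjusted p = 0.00978). Celsr3, an adhesion receptor of axon guidance, fell by 0.51 (0.0172), and with the thalamic covariate by 0.55 (0.0591, no longer past the threshold). Fat1, a giant cadherin, fell by 0.32 (0.0290). Its call was lost without WT 1 (0.0572), WT 11 (0.0544) or cKO 8 (0.0581). The call was also lost in 4 of 14 other alternatives, among them all genes above 0 tested (0.0570) and both marker scores (0.0568). With the thalamic covariate the difference of Fat1 was again -0.32 (0.111), and with the GC and length correction it was -0.18 (0.0550). Pcdh15, known from the tip links of hair cells, fell by 0.21 (0.0132), with WT values of 44.94 to 53.9 CPM and cKO values of 40.1 to 44.87 CPM that did not overlap. Pcdh15 and Clstn2 were past the threshold in all 12 fits without 1 mouse and all 14 other alternatives.

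Of the cadherins proper, 0 of the 17 tested passed with limma, with 8 positive and 9 negative differences. At an unadjusted p under 0.05 there were 4, beside 31.1% of all genes. edgeR's quasi-likelihood test called 0 (13.7% of all genes) and DESeq2 1 (17.9%). With the thalamic covariate limma called 1, beside 5.74% of all genes, and in both fits it was Cdh13. The largest difference was that of Cdh24 (-0.38, limma adjusted p = 0.125). Cdh2 (N-cadherin), which Pcdh8 and Pcdh19 are known to bind, was at 116 to 146 CPM in WT and 99.5 to 143 CPM in cKO (-0.08, limma adjusted p = 0.550). Among 7 catenins, which link cadherins to actin, Ctnnd1 (p120 catenin) fell by 0.18 (limma adjusted p = 0.0482), a call lost in 10 of 12 fits without 1 mouse, all but those without WT 6 or WT 15, and in 6 of 14 other alternatives, among them the thalamic covariate (a difference of -0.08, 0.436). edgeR called the same gene, DESeq2 called Ctnnd1 and Jup, and limma with the thalamic covariate called Ctnnb1 alone. In these 3 fits 13.7%, 17.9% and 5.74% of all genes were called, and 14.1% with limma without the covariate. Among 24 cytoplasmic partners of protocadherins (the WAVE complex, TAO kinases, protein phosphatase 1 subunits, Dab1, Mdm2, Mef2 factors and others), 1 rose and none fell with limma, beside 14.1% of all genes called. edgeR called 1, DESeq2 2 (Brk1 and Taok2) and limma with the thalamic covariate 0, beside 13.7%, 17.9% and 5.74% of all genes. In the fit with the covariate 3 had an unadjusted p under 0.05, beside 24.7% of all genes. The 1 that rose with limma was Brk1, the small subunit of the WAVE complex, at 96.6 ± 3.01 CPM (SD, n = 7) and 109 ± 8.88 CPM (SD, n = 5), a difference of 0.17 (limma adjusted p = 0.0296). That call was lost without WT 1, WT 4, cKO 8, cKO 13 or cKO 14 (0.0517 to 0.0675) and in 3 of 14 other alternatives. These were all genes above 0 tested (0.0518), both marker scores (0.0505) and the thalamic covariate, where the difference of Brk1 was 0.21 (0.0546). General neuronal markers had 0 of 8 past the threshold with limma, edgeR and DESeq2 (2 at an unadjusted p under 0.05 in each, beside 31.1% of all genes with limma), and 0 of 8 with the thalamic covariate (4 at an unadjusted p under 0.05, beside 24.7% of all genes). They summed to 3928 to 4316 CPM in WT and 4059 to 4616 CPM in cKO libraries. Their mean level, as log2(CPM + 1), was 8.61 in WT and 8.76 in cKO (exact permutation p = 0.0480). The markers did not all go this way: 5 were higher in cKO, with the largest differences in Gad1 (0.47) and Slc32a1 (0.43), and 3 were lower. The lower ones were Rbfox3 (-0.02), Syt1 (-0.06) and Slc17a6 (-0.06). Choroid plexus markers had a mean level of 2.24 in WT and 2.01 in cKO (exact permutation p = 0.0467). They summed to only 16.7 to 29.5 CPM in WT and 15.2 to 21.4 CPM in cKO libraries. Aqp1 had under 3 reads in at least 1 library. Of the 3 tested, 0 passed with limma (14.1% of all genes): Clic6 was at -0.58 (limma adjusted p = 0.0635), Kl at -0.23 and Ttr at 0.07. DESeq2, and limma with the thalamic covariate, called Clic6, beside 17.9% and 5.74% of all genes. By the same exact permutation test, p was 0.0227 for the thalamic markers and 0.590 for the hypothalamic ones. For the other marker lists outside the hypothalamus and thalamus (cortex and striatum, oligodendrocyte lineage, astrocytes, microglia, endothelium, mural cells and fibroblasts, and ependyma) that p was 0.0821 to 0.941. The lowest of these was that of the microglia, with 6 of 6 markers higher in cKO, and 5 of 5 endothelial markers were also higher. These p-values are not adjusted over the 11 marker lists, and the part of these markers in the members' values was not tested.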

How the data were processed

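RNA was sequenced in 12 hypothalamus libraries, 7 labelled WT and 5 labelled cKO, grouped by their titles. Per the labels' protocols, messenger RNA was isolated from column-purified total RNA and the library kit was NEBNext Ultra II. The submitters' processing notes name bcl2fastq, FastQC 0.11.9, STAR 2.7.9a, SAMtools, Subread and featureCounts. Genome build, annotation and strand setting are not given in the sources used here. The authors deposited normalized CPM per gene and their own test's log2 fold changes and p-values (with FDR). A positive log2 fold change there is higher in the libraries labelled cKO.

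CPM are not raw counts, so limma 3.58.1 (R 4.3.3; lmFit, eBayes with trend) was run on log2(CPM + 1), a scale that understates the change of low genes, for the 15359 genes that averaged 1 CPM or more. P-values were adjusted by Benjamini-Hochberg over all of these, with a threshold of 0.05. Single genes were also compared in mean CPM by an exact permutation test (two-sided, 792 arrangements), whose smallest p is 0.00126. Permutations within groups tested the correlations. All CPM values were whole multiples of 1 read's worth in their library (100% within a tolerance of 0.01). Whole reads were therefore recovered for edgeR 4.0.16, which called 2098 genes, and DESeq2 1.42.0, which called 2747. A level of 3 reads, which covers counting error only, was 0.0436 to 0.178 CPM. Lengths, spans and GC content came from GENCODE M21 and promoters from RefSeq. The fit was also run on simulated data with known changes. The outcome of that run is not given here, and no result rests on it.

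Alternatives used median centring, quantile normalization, a pseudocount of 0.1, other filters and variance models, array weights, edgeR, DESeq2, thalamic and hypothalamic marker scores (mean log2(CPM + 1) of a list) as covariates, a GC content and length correction, and leaving out each mouse. The members, gene lists and alternatives were chosen with earlier results of these data known. Named genes are the members, Smc3, listed genes past the threshold and, for each member, the gene of most similar pattern; Cdh2, Cdh13, Cdh24, Jup, Ctnnb1, Taok2 and markers named beside a result were picked with their values known. The libraries are labelled as separate mice, and no batch is labelled.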

Additional observations from a re-analysis of the deposited data

Results flagged for a closer look

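Of 46 groups of values examined, 3 held a library whose gap to its nearest neighbour was large for the group's range, where chance gives about 1 in 20, or 2.3. Pcdh17 was at 222 CPM in cKO 13, with the next cKO library at 286 CPM. Pcdh18 was at 26.1 CPM in WT 11, with the next WT library at 22.1 CPM. The depth of WT 1 was 68.7 M reads (megareads), with the next WT library at 24.0 M.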

How the results depend on the processing

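Over 14 alternatives and 12 fits without 1 mouse, 211 of 234 values of the 9 members' differences kept their direction and their side of the threshold, 3 lost the call, 8 gained one and 12 changed sign, 10 of them of Pcdh18. The call of Pcdh7 ended in 3 fits, with a difference between 0.19 and 0.31 over the alternatives and 0.23 to 0.30 without 1 mouse. Pcdh9 changed sign without WT 6 (-0.024) and without cKO 14 (-0.013), and without 1 mouse reached at most 0.074. Pcdh18, whose difference was 0.00, was negative with a pseudocount of 0.1 (-0.00058), the GC content and length correction (-0.011) and the hypothalamic covariate (-0.034), reached 0.15 with the thalamic covariate and ran from -0.078 to 0.083 without 1 mouse, so it has no settled sign. Array weights called 5126 of the genes tested (2405 higher), 5 members and 16 genes of the lists of other cadherins, catenins and cytoplasmic partners (listed genes below; markers not counted). The thalamic covariate called 881 genes (330 higher), 0 members and 4 listed genes. The GC content and length correction called 3 members, beside 13.4% of genes. In the fit without correction 7 listed genes were called, beside 2172 of all genes. Those tested were 14 other protocadherins and large cadherins, 17 cadherins, 7 catenins and 24 cytoplasmic partners. With all genes above 0 tested 3 listed genes were called, beside 1544 of all genes, and with the hypothalamic covariate 11, beside 2922. Without 1 mouse the counts were 1158 (without WT 1) to 2302 genes, 0 to 3 members and 3 to 8 listed genes. Without WT 1, WT 4, cKO 8 or cKO 14 the listed genes called were 3 or 4, beside 1158, 1722, 1684 and 1456 of all genes. Median centring moved the split of all calls from 1004 higher and 1168 lower to 1377 and 1054. Correlated pairs of members were 5 with median centring, 0 to 6 without 1 mouse, and 0 within WT without any 1 WT mouse, where the count was 1 before; 6 mice cannot bring a single pair under an adjusted p of 0.05. The order by level kept 3 ranks with coding length and 5 with the exon union, an alternative chosen after seeing the data. The causes of these changes were not tested. No paired analysis was possible because WT and cKO mice share no number. With 7 and 5 mice, differences within intervals of about 0.12 to 0.26 log2 units on either side were not resolved.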
